A study of Sus scrofa with 6 samples.

Results

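The genes described here mark ciliated cells, one of the cell types of the uterine and oviductal lining, and they were followed in epithelium scraped from the uterine horns of pregnant sows. The list holds 10 genes: the transcription factor FOXJ1, the calcium-binding protein CAPS, the microtubule proteins TPPP3 and TEKT1, the anchoring protein SPA17, the dynein chains DNAI1 and DNALI1, the central apparatus protein SPAG6, the axonemal ruler protein CCDC39 and the transport protein IFT88. All probe sets to which the array's annotation gives 1 of these symbols were taken, whatever their values. This gave 4 of the 10 genes, CAPS, TPPP3, SPA17 and TEKT1, out of 6765 genes named on the array. CAPS has 2 probe sets and the others 1 each, so 5 of the 23999 tested probe sets were read. The annotation used here names no probe set for FOXJ1, DNAI1, DNALI1, SPAG6, CCDC39 or IFT88, and these 6 were not analysed here.

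The samples came from 3 weaned crossbred Landrace x Large White sows. In each sow 1 oviduct was inseminated by laparoscopy and the opposite oviduct received the semen diluent alone, so that on day 6 the first horn held embryos at the blastocyst stage and the second held oocytes. Both horns of a sow shared anaesthesia, surgery, circulation and hormonal state, and each horn was flushed before the lining of its tip, the first 10 cm by the labels, was scraped with a glass slide. The RNA of every horn went onto an Affymetrix porcine array of its own, so each group has 3 arrays. A scraping is a mixture of cells, and fewer cells of a type and less RNA per cell cannot be told apart in it.

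Motile cilia are built on an axoneme of doublet microtubules, on which dynein motors produce the beat and tektins and other inner proteins brace the wall. FOXJ1 switches on this programme, and intraflagellar transport carries the parts along the growing cilium. In the female tract ciliated cells are most frequent in the oviduct, where they move eggs and fluid, and they are scattered among secretory cells in the uterus. Of the 4 genes measured, TEKT1 belongs to the axoneme itself, while TPPP3, which bundles microtubules, and CAPS are abundant in ciliated cells but also made elsewhere. SPA17, which binds protein kinase A anchoring proteins, was first known from spermatozoa.

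The values are signals on a linear scale in arbitrary units, 1 per probe set and array. The median over all probe sets lay between 30.6 and 35.8 on the 6 arrays. After log2 transformation the arrays were normalized to each other and tested with limma over all probe sets, and every log2 fold change below is embryos minus oocytes. Of the 5 probe sets, 0 passed an adjusted p of 0.05, as did 0% of all tested probe sets, and 0 had an unadjusted p under 0.05 against 2.88% of all tested. With the sow as a block the counts were again 0 of 5 and 0% at the adjusted threshold, and 0 of 5 against 8.7% at the unadjusted one. The 5 probe sets did not share a direction: 3 lay lower and 2 higher with embryos, with a median log2 fold change of -0.16, where the median of all tested probe sets was 0.01 and 49.2% lay below 0. With each gene at its brightest probe set, 2 genes lay lower and 2 higher, with a median of 0.02. A total of 2 of 5 probe sets were lower in all 3 sows (14.8% of all tested) and 2 of 5 were higher in all 3 (14.9% of all tested). These counts include TPPP3, whose normalized log2 difference in sow 2 was -0.0015, and TEKT1, with 0.01 in sow 1. The rest are the probe sets of CAPS, 1 in each direction.

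**Figure D1:**
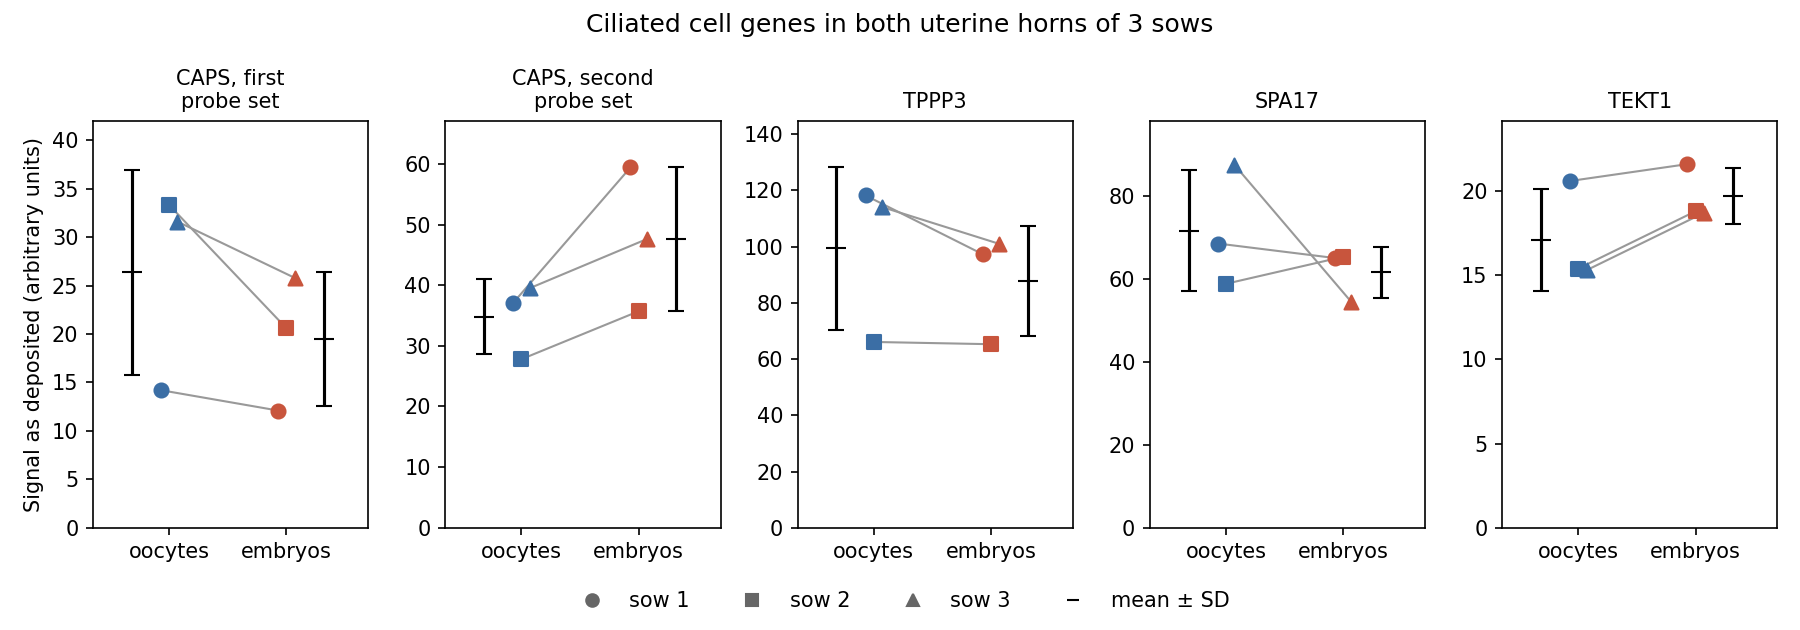
Signal as deposited (y axis, arbitrary units, from 0, a separate scale for each probe set) in the oocyte horns and the embryo horns. Symbols tell the sows apart, grey lines join both horns of a sow and black bars are means ± SD (n = 3). The lines fall for the first CAPS probe set and rise for the second, and sow 2 has the lowest TPPP3 signal in both horns, 66.1 and 65.3.

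TEKT1 encodes a tektin, a filament protein of the doublet microtubules and the most strictly ciliary of the 4 genes. Its probe set, Ssc.24124.1.S1_at, gave signals of 20.6, 15.4 and 15.3 on the oocyte side of sows 1, 2 and 3, where their embryo side gave 21.6, 18.8 and 18.7. It was slightly brighter with embryos in every sow, but the groups overlapped, since the oocyte horn of sow 1 lay above the embryo horns of sows 2 and 3. The mean signal was 17.1 ± 3.03 in oocyte horns and 19.7 ± 1.65 in embryo horns (SD, n = 3 sows, here and below). The log2 fold change was 0.20 (standard error 0.31, 95% interval -0.52 to 0.91, unadjusted p = 0.542 and adjusted p = 1.00 from limma). The probe set was dim: between 35.9% and 40.6% of the probe sets of an array had a lower signal, and in sow 1 the normalized log2 difference between the horns was 0.01. No detection calls were used here, so whether this signal stood above background on an array was not tested.

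TPPP3 promotes the assembly of tubulin, and its probe set, Ssc.19540.1.S1_at, was the brightest of the 5. From sow 1 to sow 3 the oocyte horns read 118, 66.1 and 114, and the embryo horns read 97.3, 65.3 and 101. Sow 2 was low in both horns, and the other sows were lower with embryos than with oocytes. The means were 99.5 ± 29.0 in oocyte horns and 87.9 ± 19.6 in embryo horns. The log2 fold change was -0.16 (standard error 0.27, 95% interval -0.77 to 0.45, unadjusted p = 0.559 and adjusted p = 1.00 from limma). The interval corresponds to 0.584 to 1.36 times the signal with oocytes, and with the sow as a block it narrowed to 0.732 to 1.09 times. In sow 2 the normalized difference between the horns was -0.00 on the log2 scale, against -0.30 in sow 1 and -0.19 in sow 3. The direction turned without the embryo horn of sow 2 (0.025).

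TPPP3 was the only 1 of the 5 probe sets with an adjusted p under 0.05 between sows, though not the 1 with the widest span. In a fit with horn and sow, chosen after the values were seen, the F test of limma over the sows gave an adjusted p of 0.0265, where 11.3% of all tested probe sets passed. The normalized log2 level of sow 2 was 0.68 below the mean of the other sows (-0.68). Within each group the 5'/3' ratio of the GAPDH control, described below, was also lowest in sow 2. The adjusted p ran from 0.0149 to 0.301 over 12 alternatives and was above 0.05 in 5 of them: without the variance trend, and without either horn of sow 1 or of sow 2. For the first CAPS probe set the adjusted p between sows was 0.0818, and for the second it was 0.430, while SPA17 and TEKT1 had 0.935 and 0.956. The sow averages of TPPP3 spanned 0.68 on the log2 scale and its largest difference between the horns of 1 sow was 0.30. Those of the first CAPS probe set spanned more, 1.25, with a largest difference between horns of 0.64. For SPA17 the order was the other way round, with sow averages spanning 0.12 and a largest difference between horns of 0.70. The span of the sows exceeded the largest difference between horns at 2 of 5 probe sets, TPPP3 and the first of CAPS, and at 43.8% of all tested probe sets.

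SPA17 encodes a protein of the fibrous sheath of the sperm tail that ciliated epithelium also makes. Its probe set, Ssc.26248.1.A1_at, read 68.5, 58.8 and 87.5 in the oocyte horns, against 65.0, 65.3 and 54.4 in the embryo horns of the same sows. The embryo horn of sow 3 held the lowest and the oocyte horn of the same sow the highest signal, while the other 4 arrays lay between them. SPA17 was lower with embryos in 2 sows and higher in 1. The means were 71.6 ± 14.6 in oocyte horns and 61.6 ± 6.21 in embryo horns. The log2 fold change was -0.21 (standard error 0.21, 95% interval -0.69 to 0.28, unadjusted p = 0.354 and adjusted p = 1.00 from limma). The normalized log2 differences of the sows were -0.10, 0.18 and -0.70, and without the oocyte horn of sow 3 the log2 fold change was -0.05.

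CAPS encodes calcyphosine, a calcium-binding protein, and its 2 probe sets moved in opposite directions. The first, Ssc.13996.1.S1_at, gave 14.2, 33.3 and 31.6 in the oocyte horns, against 12.1, 20.6 and 25.8 in the embryo horns of sows 1, 2 and 3, and was lower with embryos in each sow. The second, Ssc.13996.3.S1_a_at, gave 37.1, 27.8 and 39.5 in the oocyte horns, against 59.4, 35.7 and 47.6 in the embryo horns, and was higher with embryos in each sow. Within each probe set the groups overlapped, since the sows differed. On the first the sow with the lowest signal was sow 1, in both horns, and on the second it was sow 2. The mean of the first was 26.4 ± 10.6 in oocyte horns, against 19.5 ± 6.92 in embryo horns, and that of the second was 34.8 ± 6.18 against 47.6 ± 11.9.

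The log2 fold change of the first CAPS probe set was -0.42 (standard error 0.49, 95% interval -1.53 to 0.69, unadjusted p = 0.413 and adjusted p = 1.00 from limma). That of the second was 0.43 (standard error 0.26, 95% interval -0.15 to 1.01, unadjusted p = 0.129 and adjusted p = 1.00 from limma, and unadjusted p = 0.0606 with the sow as a block). Without the embryo horn of sow 1 the first lay at -0.05 and without the oocyte horn of sow 1 at -0.85, while the second ran from 0.29 to 0.58 when 1 array was left out. The log2 signal of the second minus the first was 1.51, -0.18 and 0.39 in oocyte horns, against 2.44, 0.86 and 0.97 in embryo horns. This difference was larger with embryos by 0.93, 1.04 and 0.58 in sows 1, 2 and 3. In a two-sided exact permutation test over the arrays, chosen after the values were seen, p was 0.4, where 3 against 3 cannot give less than 0.1. With the signs of the sows exchanged p was 0.25, the smallest that 3 pairs allow, again in an exact permutation test. That value was fixed in advance, since the second probe set was already seen to rise and the first to fall in each sow. It therefore adds no support to the opposite directions. The ending of the second name marks a probe set that Affymetrix matched to more than 1 transcript form of a gene, and the pig gene table of assembly Sscrofa11.1 lists 5 transcripts for CAPS. Which of these forms each probe set reads was not analysed here.

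**Figure D2:**
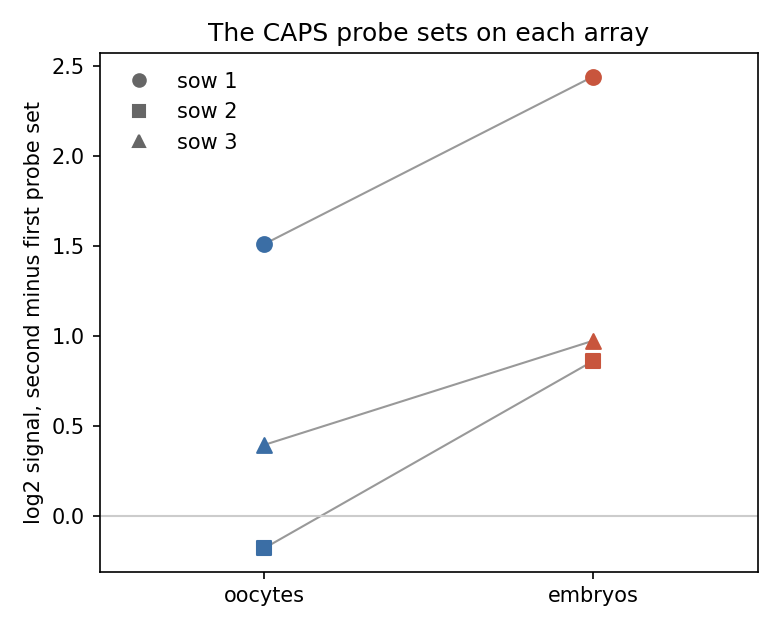
Normalized log2 signal of the second CAPS probe set minus that of the first (y axis) on each array, oocyte horns left and embryo horns right. Symbols tell the sows apart and lines join both horns of a sow, and all 3 lines rise, by 0.93, 1.04 and 0.58. The height of a point has no meaning of its own, since different probes differ in brightness.

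In the fit without the sow, the first CAPS probe set had the largest standard error of the 5. The standard error of the log2 fold change was 0.21 for SPA17, 0.26 for the second CAPS probe set and 0.27 for TPPP3, whose mean log2 signals lay above the array-wide median. It was 0.31 for TEKT1 and 0.49 for the first CAPS probe set, which lay below it. Over all tested probe sets above the median the middle standard error was 0.20 and over the rest 0.65. With the sow as a block the largest of the 5 was that of TEKT1, 0.34, and the first CAPS probe set had 0.30. Without the sow as a block the 95% interval of SPA17, the narrowest of the 5, spans 0.619 to 1.21 times the signal with oocytes.

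**Figure D3:**
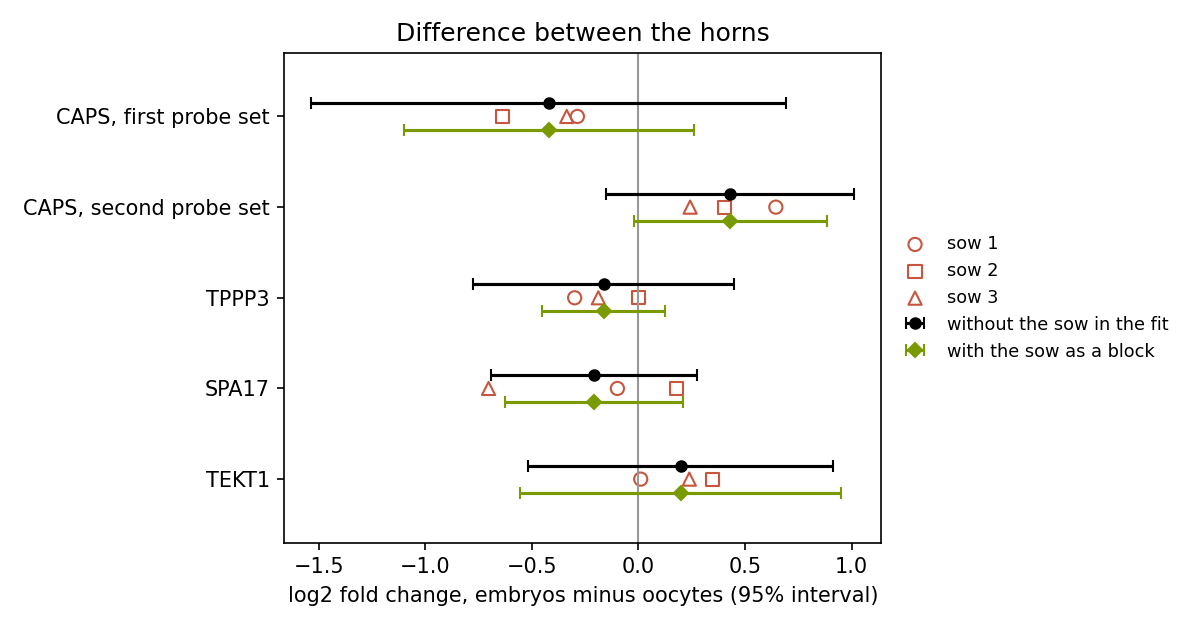
Log2 fold change, embryos minus oocytes (x axis), for the 5 probe sets. Filled symbols are the estimates with their 95% intervals, without the sow in the fit (circles) and with it as a block (diamonds), and open symbols are the differences within each sow. All 10 intervals include 0, and the filled symbols of the CAPS probe sets lie at -0.42 and 0.43.

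The control probe sets differed between the horns in their 5'/3' ratio. The 5'/3' signal ratio of the GAPDH control, which is low where long transcripts were broken or only partly copied, ran from 0.200 to 0.355 with oocytes and from 0.130 to 0.243 with embryos, and was lower with embryos in each sow. Within each group this ratio was lowest in sow 2, at 0.200 with oocytes and 0.130 with embryos. Its part in the low TPPP3 level of that sow was not tested. With the mean log2 ratio of the GAPDH and actin controls as a covariate, TPPP3 turned to 0.11, the first CAPS probe set lay at -0.95 and the second at 0.61. SPA17 lay at -0.25 and TEKT1 at 0.25 in that fit. It called 0 probe sets at the adjusted threshold, and the second CAPS probe set had an unadjusted p of 0.0444 and an adjusted p of 0.937 from limma.

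Other genes of the cilium were read from 6 lists by role, 154 symbols with older names included, of which the annotation names 32, each at its brightest probe set. Of these 32 genes 17 lay lower and 15 higher with embryos, with a median log2 fold change of -0.01. Without the intraflagellar transport list 11 of 17 lay lower and 6 higher, with a median of -0.04, where 49.2% of all tested probe sets lay below 0. With limma 0 of 32 passed the adjusted threshold, whether or not the sow was blocked, and in the unblocked fit 0 reached an unadjusted p of 0.05. With the block 2 did, against 8.7% of all tested probe sets, both lower and both of the axonemal doublet: TUBB4B, a tubulin of ciliary microtubules (unadjusted p = 0.0270 and adjusted p = 0.505), and ENKUR, an inner doublet protein (unadjusted p = 0.0289 and adjusted p = 0.511). The 32 genes have 42 probe sets, and their dimmer ones are not in these counts. Of those, that of IFT57 (unadjusted p = 0.0445 from limma with the block) and those of KIF3A (0.00148, 0.0155 and 0.000653) were under 0.05, all lower. Their adjusted p ran from 0.244 to 0.557, and no other dimmer probe set was under 0.05. Within the sows 4 of the 32 were lower in all 3 and 4 higher in all 3, where 14.8% and 14.9% of all tested probe sets were. Of the 17 outside intraflagellar transport 4 were lower and 1 was higher in all 3.

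Among the regulators of ciliogenesis 1 gene was named, DEUP1, which builds the many centrioles of ciliated cells. Its oocyte horns read 40.2, 29.7 and 76.3 and its embryo horns 35.6, 24.8 and 57.0, lower with embryos in each sow (log2 fold change -0.29, standard error 0.41). Among the axonemal dyneins DNAL4, a light chain, had 80.1, 98.3 and 103 in oocyte horns, against 93.0, 113 and 117 in embryo horns, higher with embryos in each sow (log2 fold change 0.19, standard error 0.18). Both differed more from sow to sow than from horn to horn, and neither passed the test.

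Of the dynein assembly factors 3 of 4 lay lower, with RUVBL2 and RUVBL1, helicases of the assembly complex, at -0.11 and -0.08 and SPAG1 at -0.17 on the log2 scale. Of the radial spoke and central apparatus genes 1 of 2 lay lower. ROPN1L, a radial spoke protein, had means of 114 ± 28.2 in oocyte horns and 112 ± 6.89 in embryo horns, and AK8, a kinase, had 21.2 ± 4.80 and 21.2 ± 5.42. Of the doublet microtubule proteins 6 of 9 lay lower. The 3 brightest of these were CFAP20 at -0.04, CAPSL, a relative of CAPS, at -0.24 and CFAP126 at 0.04, none of them past the test.

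Intraflagellar transport serves the primary cilia of other cells as well, and its genes, which are among the 32 counted above, are given here as a list of their own. Of the 15 named, 6 lay lower and 9 higher, with log2 fold changes between -0.23 and 0.35. ARL3, a small GTPase of ciliary cargo release, had means of 424 ± 34.5 in oocyte horns and 460.4 ± 72.3 in embryo horns. IFT57 had 265 ± 74.6 and 253 ± 53.4, and KIFAP3, a kinesin adaptor, had 229 ± 45.7 and 231 ± 44.3. A dimmer probe set of IFT57 had 91.9 ± 14.7 and 75.1 ± 12.9, lower with embryos in each sow (log2 fold change -0.30). The summed signal of the 15 genes ran from 2038 to 2317 with oocytes and from 2025 to 2279 with embryos, which overlap over nearly their whole range.

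**Figure D4:**
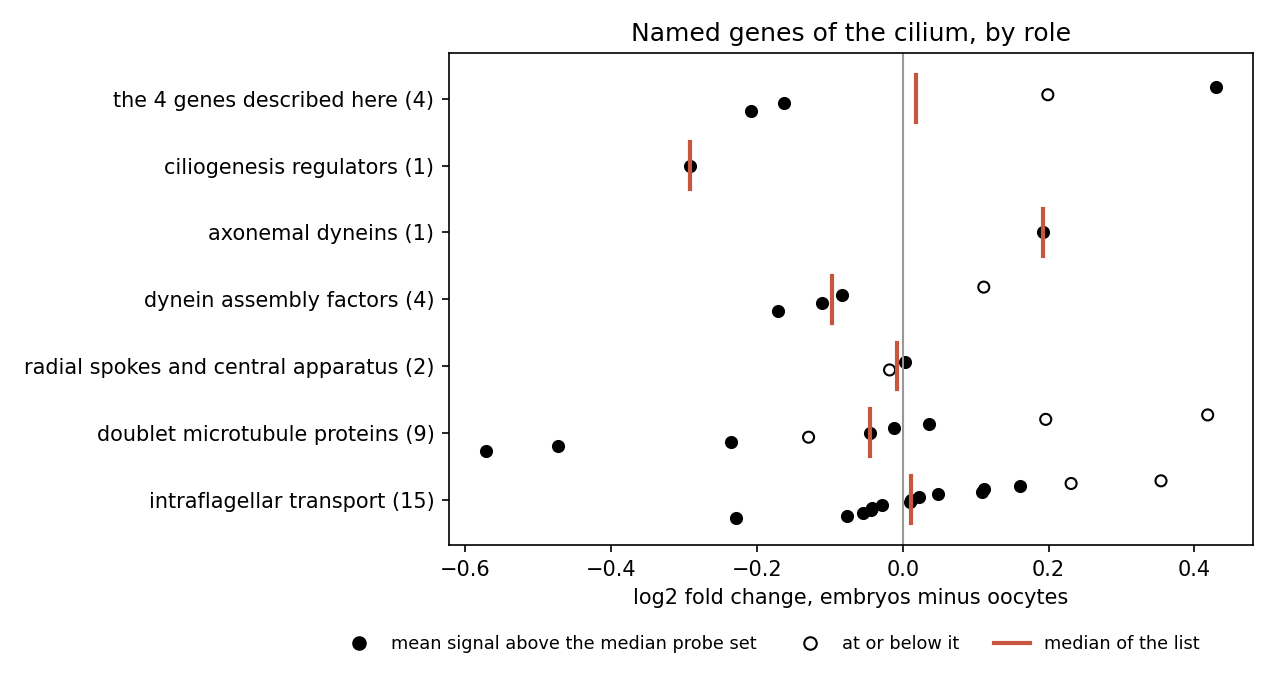
Log2 fold change, embryos minus oocytes (x axis), of each named gene at its brightest probe set, for the 4 genes described here and 6 lists of ciliary genes by role (number of genes in brackets). Filled points lie above the array-wide median signal, open points do not, and red bars are the list medians. The 17 genes lower and 15 genes higher with embryos in the 6 lists lie on both sides of 0.

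Markers of other cells that a scraping beside the utero-tubal junction could hold were read in the same way. Of the epithelial markers 11 of 12 were named, 4 lower and 7 higher, and the brightest, KRT8, EPCAM and KRT19, lay at 0.06, -0.03 and -0.07 on the log2 scale. VIM, DCN and LUM, markers of stroma, lay at 0.01, -0.08 and 0.05, with 5 of 7 stromal genes lower. The sows differed more: VIM, DCN and LUM were lowest in sow 2 in both groups. DCN read 1217 with oocytes and 1185 with embryos there, against 1580.5 to 2436.8 in the other sows. THY1, also a stromal marker, was highest in sow 2 in both groups. Whether the mixture of cells bears on the TPPP3 level of sow 2 was not tested. ACTA2, TAGLN and SMTN, of smooth muscle, lay at -0.01, -0.22 and -0.07, with 5 of 6 lower. Leukocyte markers were lower in 5 of 9 (AIF1, CD8A and PTPRC at 0.37, 0.20 and -0.15), endothelial and blood markers in 3 of 7 (ALAS2, HBB and PECAM1 at 0.30, -0.15 and 0.09) and blastocyst markers in 3 of 6 (DAB2, IL1B and GATA3 at -0.02, 0.23 and -0.25). At its brightest probe set none of these genes reached an unadjusted p of 0.05 with limma, blocked by sow or not, and none was at 0 on any array.

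OVGP1, the glycoprotein that secretory cells of the oviduct release, was read with the markers of the oviduct. The oocyte horns of sows 1, 2 and 3 read 23.3, 34.5 and 2.80, and their embryo horns 22.1, 289 and 89.5. The embryo horns of sows 2 and 3 were above the other 4 arrays. Its difference on the log2 scale was 2.65 (standard error 1.11, with unadjusted p = 0.0424 and adjusted p = 1.00 from limma, and 0.00388 and 0.346 with the sow as a block). WT1, the other named gene of that list, lay at -0.03. On the array with the highest OVGP1 signal, the embryo horn of sow 2, TPPP3 was at its lowest, 65.3. It was nearly as low, 66.1, in the oocyte horn of that sow, where OVGP1 read 34.5. In the embryo horn of sow 2 the signals of both CAPS probe sets, SPA17 and TEKT1 lay within the range of the other arrays. On the normalized log2 scale TEKT1 was at its highest on that array, 4.15 against 3.79 to 4.09 on the others. In the embryo horn of sow 3, where OVGP1 read 89.5, SPA17 was at its lowest, 54.4. The signals of TPPP3, TEKT1 and both CAPS probe sets lay within the range of the other arrays there. A relation between OVGP1 and these genes was not tested.

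Genes of spermatozoa and testis were read because SPA17 is also a sperm protein and semen entered the embryo side. Of the 17 listed 11 were named, 3 lower and 8 higher, and 10 of the 11 had a mean signal below the array-wide median. AKAP3, PRM2 and ACRBP, the 3 brightest, lay at 0.04, 0.29 and 0.77 on the log2 scale. TNP2 and PGK2, 2 of the 11 where 2.88% of all tested probe sets did so, had an unadjusted p under 0.05 (0.00445 and 0.0184, adjusted p = 1.00 from limma). Both were higher with embryos in all 3 sows, by 2.90 and 2.23 on the log2 scale, with signals that reached 11.3 and 11.4 at most. The summed signal of the 11 genes ran from 213 to 258 with oocytes and from 204 to 315 with embryos, and their part in the SPA17 values was not tested.

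The 4 genes did not move as a group across the arrays. Between their 5 probe sets the Pearson correlation over the 6 arrays, which share sows and normalization, ran from -0.74 (the first CAPS probe set and TEKT1) to 0.46 (the second CAPS probe set and TEKT1). The mean profile of the 3 genes with above-median signal, CAPS, TPPP3 and SPA17, was lowest in both horns of sow 2. The probe sets closest to that profile were those of PON2, TMEM263, SMIM19, LMO2, BCAR3, GSTO1, MRPS17, SEC61B, PMF1 and ECHDC1, with correlations of 0.99 for the first and 0.97 for the last. Of 6101 probe sets compared, 93 (1.52%) had a correlation above 0.9, and 0 of the 31 probe sets of the other ciliary genes were among them.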

How the data were processed

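The signal intensities were made by the authors with Microarray Suite (MAS5) 5.1, per the labels, and deposited as 1 linear value for each of 24123 probe sets and 6 arrays, with equal means once the outer 2% of signals are dropped. These values do not hold the lowess step that the methods name, and single probes and detection calls were not used here. Signals were floored at 0.1, put on a log2 scale and normalized by cyclic loess. After removal of 124 control probe sets, 23999 were tested with limma 3.58.1 (R 4.3.3), embryos against oocytes, with a variance trend and Benjamini-Hochberg adjustment. The number of arrays limits the precision. Symbols come from the array's annotation: 10069 probe sets have 1, 198 several and 13732 none. A check through gene identifiers, possible for 9961, changed 0. The gene list, the wider lists and the tests were chosen with earlier results of these data known. Named are every probe set of the genes, the 3 brightest genes of each wider list and the 10 closest profiles. Equal array numbers mark a sow, since the ratios printed for each animal in the methods equal those of equally numbered arrays. Deviations from the group means correlated at 0.21, 0.17 and 0.10 within the pairs. The fit was tested on simulated data. Alternatives were other normalizations, 32 added to each signal, a filter on dim probe sets, the sow as a block, no variance trend, the 5'/3' covariate and leaving out each array. Figures were drawn with matplotlib 3.10.9.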

Additional observations from a re-analysis of the deposited data

How the results depend on the processing

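Under 14 alternatives 0 probe sets passed over the array, and 2 or 3 of the measured ciliated cell probe sets lay lower with embryos. With the 5'/3' covariate the second CAPS probe set had an unadjusted p of 0.0444 from limma, but an adjusted p of 0.937. The median of the measured probe sets was 0.11 in that fit and TPPP3 lay at 0.11. The sow as a replicate block changed no call on the measured probe sets, with 0 at an unadjusted p under 0.05 and the median at -0.16. TPPP3 ran from -0.43 to 0.025 when 1 array was left out, the highest without embryos of sow 2, and the median from -0.18 to 0.025. Both CAPS probe sets, SPA17 and TEKT1 kept their direction in every alternative that could test them. The filter on dim probe sets removed TEKT1 and the first CAPS probe set. The TPPP3 level of sow 2 against the other sows stayed at -0.68 without the variance trend and ran from -0.80 to -0.56 when 1 array was left out. The F test over the sows, which singles out no sow, did not pass without the variance trend or in the other cases given above. Its alternatives were chosen after the data were seen. The cause of the lower level was not tested.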

Other observations

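KIF3A, a kinesin of intraflagellar transport, was picked after its values were seen, because the array names 4 probe sets for it and all 4 lay lower with embryos. The brightest, which stood for the gene above, had a log2 fold change of -0.23, and the others had -0.71, -0.44 and -0.81. The last read 97.3, 75.0 and 60.1 in the oocyte horns, against 55.2, 48.6 and 30.8 in the embryo horns of sows 1, 2 and 3. Its unadjusted p from limma was 0.0191 (adjusted p = 1.00), and 0.000653 (adjusted p = 0.244) with the sow as a block. The 5'/3' ratio of the GAPDH control was lower with embryos in each sow, and its part in these values was not tested.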
